A study of Mus musculus with 2 samples.

Results

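Neurons are recognised in tissue RNA by transcripts for their cytoskeleton and for a small family of RNA-binding proteins, and 10 such genes were followed here in the pituitary of Dyrk2 knockout mouse embryos. They were taken by symbol, matched through Ensembl gene identifiers, from 55401 genes with a deposited value, and all 10 were found. The set holds the microtubule genes Tubb3, Dcx, Map2 and Stmn2, the growth cone gene Gap43, the intermediate filament genes Nefl, Nefm and Ina, and the RNA-binding protein genes Elavl3 and Elavl4.

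A newborn neuron extends an axon whose microtubules are built from neuron-enriched tubulins and steadied or trimmed by associated proteins, while the growth cone at its tip carries membrane-bound Gap43. Neurofilaments, polymers of light, medium and heavy chains that can incorporate alpha-internexin, fill the axon later and widen it. The neuronal Elavl proteins (Hu proteins) bind AU-rich and U-rich stretches of mRNA and alter its splicing and stability. In the pituitary such transcripts can come from nerve fibres and neurons of adjoining tissue, and several of them are also made by endocrine cells, which share the secretory machinery of neurons.

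The RNA was total RNA of pituitaries at E12.5 (embryonic day of development), prepared as stranded polyA-selected libraries, with 1 library of Dyrk2-/- embryos (labelled Dyrk2-KO) and 1 library of wild-type embryos. Dyrk2 encodes a protein kinase, and the series is concerned with primary cilia, cell type determination and vessel growth. The labels name no Cre driver, and they state neither how the allele was made nor the strain, the sex or the number of embryos pooled. The deposited unit was FPKM, the fragments of a gene divided by its exon length in kilobases and by the library's total. Depth was alike, at 20.12 (knockout) and 20.05 (wild type), in units of 1e6 counted fragments. Each genotype had 1 library, so the differences have no check against replicates and are given without p-values. Intervals are 95% intervals that cover counting error only.

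Dyrk2 measured 1.93 FPKM (1.70 to 2.19) in the knockout library and 11.5 FPKM (10.9 to 12.1) in the wild-type library, 5.97-fold lower (5.20 to 6.86). Of the pituitary's own genes, Six6, a pouch and hypothalamic factor, measured 69.7 FPKM in the knockout library and 95.3 FPKM in the wild-type library, Pomc 8.71 (knockout) and 8.67 FPKM (wild type), and Pou1f1, a factor of later hormone lineages, was listed at 0 in both. Both libraries held transcripts of both sexes in different proportions: Xist, made from the inactive X chromosome, measured 14.8 FPKM in the knockout library and 74.98 FPKM in the wild-type library, and the Y-linked gene Ddx3y 14.95 (knockout) and 5.83 FPKM (wild type). In bulk RNA, fewer cells of a type and less RNA per cell cannot be told apart.

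Nefl and Nefm parted from the other markers. All 8 markers other than the neurofilament chains Nefl and Nefm were higher in the knockout library, by 1.12-fold to 1.56-fold as plain ratios, and Nefl and Nefm were lower. All 10 genes passed a filter that asked for 1 FPKM or more in either library, which 14000 genes passed. Of these 10, 8 had a log2 ratio of knockout over wild type above 0, against 45.7% of the 14000 genes and 46.3% of the protein-coding ones among them, and 2 had one below 0, against 53.7% of the 14000. After 0.5 FPKM was added to both values, 0 of the 10 were at least 1.5-fold higher, a size reached by 2.06% of all genes and 1.08% of protein-coding genes, and 1 of 10 was at least 1.5-fold lower, against 4.56% of all genes and 2.95% of protein-coding genes. The median log2 ratio with that addition was 0.28 over the 10 markers and -0.02 over all genes. With that addition 9 of the 10 differed by less than 1.5-fold.

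**Figure D1:**
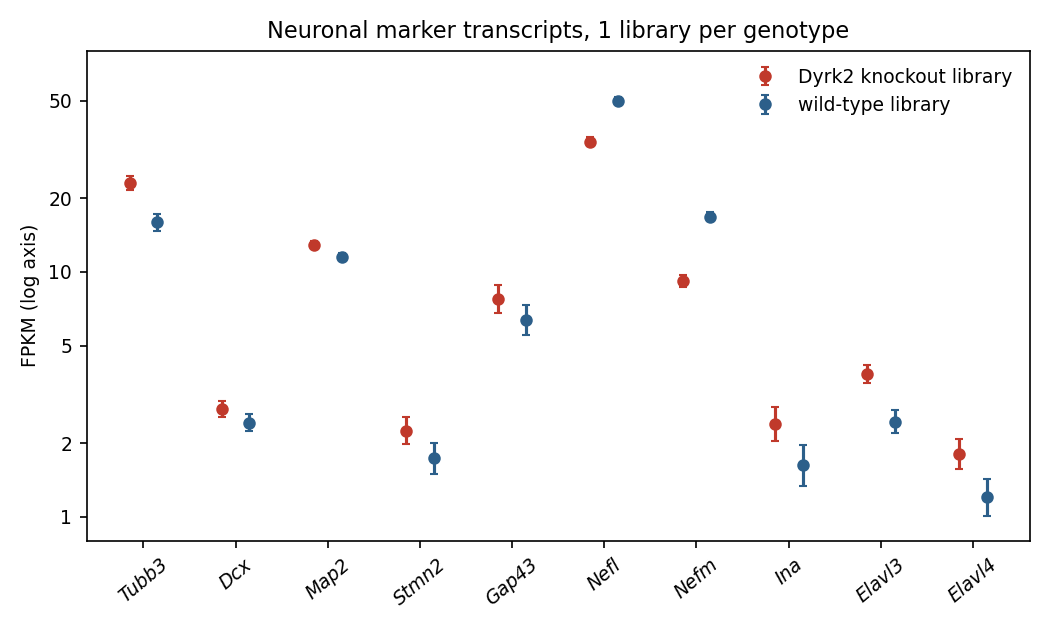
FPKM of each marker (log axis) in the Dyrk2 knockout library (red, left of each pair) and the wild-type library (blue, right), with bars for 95% Poisson counting intervals. Nefl and Nefm sit lower in the knockout library, at 34.0 FPKM and 9.19 FPKM, and the other 8 sit higher.

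Levels spanned a wide range. In the knockout library the order by FPKM was Nefl, Tubb3, Map2, Nefm, Gap43, Elavl3, Dcx, Ina, Stmn2 and Elavl4, and in the wild-type library it was Nefl, Nefm, Tubb3, Map2, Gap43, Elavl3, Dcx, Stmn2, Ina and Elavl4. Neighbours whose counting intervals overlapped were Nefm and Gap43 and the run of Dcx, Ina, Stmn2 and Elavl4 in the knockout library, and Nefm and Tubb3, Elavl3 and Dcx, and the run of Stmn2, Ina and Elavl4 in the wild-type library. The median of the 14000 genes was 7.38 FPKM in the knockout library and 7.56 FPKM in the wild-type library, so only Nefl, Tubb3, Map2, Nefm and, in the knockout library, Gap43 exceeded it. The deposited lengths equal the joined exons of all GENCODE M21 transcripts of a gene for 9 of the 10 markers, and differ by 7 bases for Map2. For Map2 the longest coding transcript in GENCODE M21 is 6258 bases against a deposited length of 16456 bases, 38.0%, and for Stmn2 it is 2073 of 5602 bases, 37.0%. Such genes receive a lower FPKM than a length of 1 transcript would give, equally in both libraries.

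Tubb3 encodes class III beta-tubulin, the tubulin most used to stain young neurons. The gene occupies 123411424 to 123422015 of chromosome 8, plus strand (GRCm38). Its level was 23.1 FPKM (21.5 to 24.6) from 866 fragments in the knockout library and 15.9 FPKM (14.7 to 17.3) from 597 fragments in the wild-type library, 1.45-fold higher (1.30 to 1.61). The intervals of the 2 libraries did not overlap.

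Beta-tubulin genes are alike over most of their coding sequence and part at the end, in the tail that tells the isotypes apart and that antibodies to class III beta-tubulin recognise. The last coding bases of Tubb3 and of the relatives in the lists are shown to make that difference visible. They are GENCODE M21 transcript sequences from coding base 1261 through the stop codon, 5′ to 3′, with capitals from base 1291, where the variable tail begins.
Tubb3: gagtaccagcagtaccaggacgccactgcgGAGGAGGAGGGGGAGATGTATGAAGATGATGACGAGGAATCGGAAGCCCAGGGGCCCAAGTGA
Tubb2a: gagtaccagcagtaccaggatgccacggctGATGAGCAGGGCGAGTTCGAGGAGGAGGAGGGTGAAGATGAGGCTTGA
Tubb2b: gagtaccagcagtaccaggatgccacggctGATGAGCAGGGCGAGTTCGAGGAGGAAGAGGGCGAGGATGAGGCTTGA
Tubb4a: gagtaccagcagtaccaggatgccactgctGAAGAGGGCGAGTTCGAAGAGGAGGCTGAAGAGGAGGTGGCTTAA
Over the coding bases before those shown, Tubb2b is 84.9% identical to Tubb3, Tubb2a 84.8% and Tubb4a 83.8%. None of the 1867 distinct 100-base stretches of annotated Tubb3 transcripts occurs in a transcript of another gene, on either strand, so fragments of that length are assignable to Tubb3 by sequence.

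Tubb3 was a small part of the beta-tubulin RNA. Of the summed FPKM of 8 beta-tubulin genes it made up 2.25% in the knockout library and 1.78% in the wild-type library, while Tubb5, the isotype of most dividing cells, made up 61.8% (knockout) and 63.1% (wild type). The sum itself was 1026 FPKM in the knockout library and 897 FPKM in the wild-type library, 1.14-fold higher. Among the relatives, Tubb2b, a tubulin of embryonic neurons and progenitors, measured 152 FPKM in the knockout library and 119 FPKM in the wild-type library, 1.28-fold higher (1.23 to 1.32), while Tubb2a was near level, at 26.5 (knockout) and 26.2 FPKM (wild type).

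Dcx, Map2 and Stmn2 act on microtubules. Dcx encodes doublecortin, which stabilises microtubules in migrating young neurons. It measured 2.76 FPKM (2.56 to 2.97) in the knockout library and 2.42 FPKM (2.23 to 2.62) in the wild-type library, 1.14-fold higher (1.02 to 1.27). Its gene lies on the minus strand of the X chromosome, between 143855842 and 143933311, and the libraries differed in their mixture of sexes as the Xist and Ddx3y values show. The part of that mixture in the Dcx value was not tested.

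Map2, on the plus strand of chromosome 1 between 66175273 and 66442583, encodes a protein that bundles microtubules in dendrites and cell bodies. With 4283 fragments in the knockout library it had the most fragments of the 10 there, and as a plain ratio it was the marker closest to level: 12.9 FPKM (12.6 to 13.3) in the knockout library and 11.5 FPKM (11.2 to 11.9) in the wild-type library, 1.12-fold higher (1.07 to 1.17). With 0.5 FPKM added, Dcx and Map2 both had a log2 ratio of 0.16. Relative to Tubb3 both were lower in the knockout library. The Map2 level per Tubb3 level was 0.561 in the knockout library and 0.723 in the wild-type library, a ratio of ratios of 0.776 (0.692 to 0.871), and that of Dcx was 0.120 (knockout) and 0.152 (wild type), a ratio of ratios of 0.789 (0.676 to 0.919). Such quotients do not depend on how the libraries are scaled to each other.

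Stmn2, which encodes SCG10, a stathmin that makes growth cone microtubules dynamic, measured 2.25 FPKM (1.99 to 2.55) in the knockout library and 1.74 FPKM (1.5 to 2.0) in the wild-type library, 1.29-fold higher (1.07 to 1.57). The gene lies on the plus strand of chromosome 3, between 8509360 and 8561606. The neuronal relatives Stmn3 and Stmn4 had like ratios. Stmn3 measured 9.23 FPKM in the knockout library and 7.16 FPKM in the wild-type library, 1.29-fold higher (1.05 to 1.59), and Stmn4 2.21 (knockout) and 1.43 FPKM (wild type), 1.55-fold higher (1.08 to 2.20). Stmn1, the stathmin of dividing cells as well as neurons, was 1.10-fold higher (1.06 to 1.14), at 150 (knockout) and 137 FPKM (wild type). It held 91.6% of the summed stathmin FPKM in the knockout library and 93.0% in the wild-type library, and Stmn2 1.38% (knockout) and 1.18% (wild type).

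Gap43 encodes the growth-associated protein 43, a substrate of protein kinase C at the growth cone membrane, and lies on the minus strand of chromosome 16 between 42248442 and 42340651. It measured 7.77 FPKM (6.81 to 8.82) in the knockout library and 6.39 FPKM (5.52 to 7.35) in the wild-type library, 1.22-fold higher, with an interval (1.002 to 1.48) whose lower end lies barely above equality. The quotient of Stmn2 over Gap43 was 0.290 in the knockout library and 0.272 in the wild-type library, a ratio of ratios of 1.06 with an interval (0.811 to 1.40) that includes equality.

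**Figure D2:**
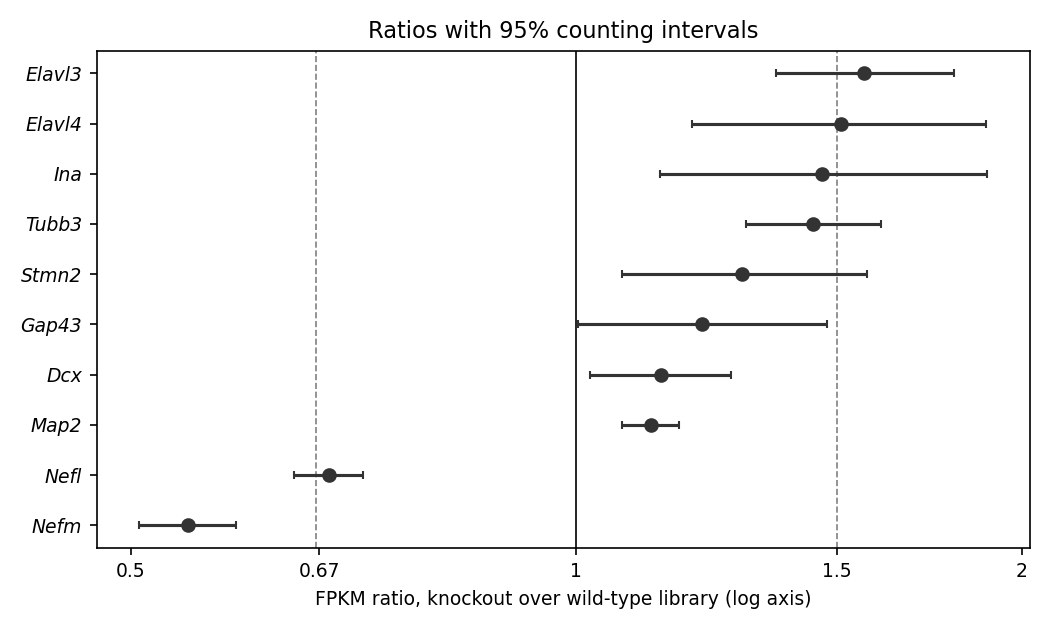
Plain FPKM ratio of the Dyrk2 knockout over the wild-type library for each marker (log axis), with 95% Clopper-Pearson counting intervals; dashed lines mark 1.5-fold either way. Nefm at 0.546 and Nefl at 0.680 lie left of equality and the other 8 lie right of it, up to 1.56 for Elavl3.

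Elavl3 and Elavl4, the genes for HuC and HuD, had the largest ratios of the 10. Elavl3 lies between 22015005 and 22052023 of chromosome 9 and Elavl4 between 110203722 and 110351909 of chromosome 4, both on the minus strand. Elavl3 measured 3.83 FPKM (3.51 to 4.17) from 531 fragments in the knockout library and 2.45 FPKM (2.19 to 2.72) from 338 fragments in the wild-type library, 1.56-fold higher (1.36 to 1.80). Elavl4 measured 1.81 FPKM (1.56 to 2.08) in the knockout library and 1.20 FPKM (1.01 to 1.43) in the wild-type library, 1.51-fold higher (1.20 to 1.89). As plain ratios both were past 1.5-fold, and with 0.5 FPKM added neither was. Their own quotient was close in the libraries, with 2.12 units of Elavl3 per unit of Elavl4 in the knockout library and 2.04 in the wild-type library, a ratio of ratios of 1.04 (0.796 to 1.36).

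The other Elavl genes were closer to level. Elavl2, the gene for HuB, measured 2.25 FPKM in the knockout library and 2.13 FPKM in the wild-type library, a ratio of 1.06 (0.911 to 1.22). Elavl1, which encodes the HuR protein of nearly all cells, was 1.12-fold higher (1.06 to 1.19), at 13.0 (knockout) and 11.6 FPKM (wild type). Elavl3 and Elavl4 made up 18.3% and 8.66% of the summed Elavl FPKM in the knockout library, and 14.1% and 6.91% in the wild-type library. In GENCODE M21, 256 of 6890 exon bases of Elavl3 are shared with the same-strand gene Gm49318, which was listed at 0 in both libraries.

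The upstream sequences of Elavl3, Elavl4 and Ina are shown because these 3 markers had the largest plain ratios. They are the 250 bases before the start, from the RefSeq promoter table in build GRCm38.p6, 5′ to 3′ on the gene's strand, with every CANNTG (the E-box core of basic helix-loop-helix factors) and every TATAAA in capitals. The Elavl3 stretch is chr9:22052024-22052273 on the minus strand, that of Elavl4 is chr4:110351912-110352161 on the minus strand, the most upstream of 4 entries, and that of Ina is chr19:47014431-47014680 on the plus strand.
Elavl3: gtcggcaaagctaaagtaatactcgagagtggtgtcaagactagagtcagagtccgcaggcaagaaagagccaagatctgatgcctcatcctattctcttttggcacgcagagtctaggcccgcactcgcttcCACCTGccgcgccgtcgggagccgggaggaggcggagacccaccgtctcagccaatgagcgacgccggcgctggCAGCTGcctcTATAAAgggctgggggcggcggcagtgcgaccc
Elavl4: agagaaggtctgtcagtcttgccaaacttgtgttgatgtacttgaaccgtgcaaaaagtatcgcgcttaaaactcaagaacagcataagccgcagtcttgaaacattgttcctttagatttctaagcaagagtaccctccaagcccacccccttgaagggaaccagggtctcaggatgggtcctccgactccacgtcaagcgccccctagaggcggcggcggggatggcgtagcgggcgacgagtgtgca
Ina: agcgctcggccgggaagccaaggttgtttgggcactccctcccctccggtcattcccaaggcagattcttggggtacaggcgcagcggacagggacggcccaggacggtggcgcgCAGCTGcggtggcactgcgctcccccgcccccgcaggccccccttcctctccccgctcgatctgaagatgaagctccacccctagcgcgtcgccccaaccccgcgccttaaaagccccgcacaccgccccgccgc
Elavl3 holds CACCTG from 117 to 112 bases before the start, CAGCTG from 43 to 38 bases before it, and TATAAA from 33 to 28 bases before it. Ina holds 1 CAGCTG, from 135 to 130 bases before the start, and the Elavl4 stretch holds neither motif.

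Entries were found for 6 of the 10 markers, namely Tubb3, Dcx, Map2, Ina, Elavl3 and Elavl4. Both strands were searched for the E-box core CANNTG, for the TATA-box letters TATAAA, for the GC-box core GGGCGG and for the CCAAT box. A CANNTG can overlap a CCAAT, and the other motifs were counted each on its own. A match is a description of the letters only. CANNTG was in 2 of the 6, against 66.2% of all 32851 promoter stretches, TATAAA in 2 of 6 (Dcx and Elavl3) against 12.4%, GGGCGG in 4 of 6 against 32.7%, and CCAAT in 3 of 6 against 33.8%. The GC content ran from 41.6% for Dcx to 81.2% for Map2.

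The intermediate filament genes parted from the rest and from each other. Nefl encodes the neurofilament light chain, the core of the polymer, and was the most abundant of the 10 markers in both libraries. It measured 34.0 FPKM (32.6 to 35.4) from 2312 fragments in the knockout library and 49.99 FPKM (48.3 to 51.7) from 3387 fragments in the wild-type library, 1.47-fold lower (1.39 to 1.55). Nefm, the medium chain, measured 9.19 FPKM (8.65 to 9.76) from 1069 fragments in the knockout library and 16.8 FPKM (16.1 to 17.6) from 1951 fragments in the wild-type library, 1.83-fold lower (1.70 to 1.98). It was the single marker past 1.5-fold with 0.5 FPKM added, at a log2 ratio of -0.84, beside -0.55 for Nefl.

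Ina, which encodes alpha-internexin, the filament protein that precedes neurofilaments in many young neurons, lay on the other side. The gene is on the plus strand of chromosome 19, between 47014698 and 47025327. It measured 2.39 FPKM (2.03 to 2.80) from 156 fragments in the knockout library and 1.63 FPKM (1.34 to 1.97) from 106 fragments in the wild-type library, 1.47-fold higher (1.14 to 1.9). The quotient of Ina over Nefl was 0.0703 in the knockout library and 0.0326 in the wild-type library, a ratio of ratios of 2.16 (1.66 to 2.80). Nefm per Ina was 3.85 in the knockout library and 10.3 in the wild-type library, 2.69-fold lower (2.06 to 3.51). Nefm also differed from Nefl, at 0.270 (knockout) and 0.337 (wild type) units of Nefm per unit of Nefl, a ratio of ratios of 0.803 (0.732 to 0.880).

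Nefl and Nefm are neighbours on chromosome 14, and their annotations overlap on opposite strands. In GRCm38 Nefl spans 68083863 to 68089095 on the plus strand. GENCODE M21 gives Nefm a span of 68082590 to 68124846 on the minus strand, because 1 of its 2 transcripts ends in an exon of 2381 bases, from 68082590 to 68084970, that reaches into Nefl. The shared exon bases number 1108, which is 32.8% of the exon length of Nefl and 19.2% of that of Nefm. The deposited length of Nefm, 5782 bases, includes this exon. The libraries were stranded, but whether strand was used in counting is not given in the sources used here. Reads of the pair may therefore not be fully told apart in the shared stretch, and the part of this overlap in either value was not tested. Ina shares 456 of 3240 exon bases with Nt5c2 on the opposite strand, a gene at 5.34 FPKM in the knockout library and 5.17 FPKM in the wild-type library.

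The other neuronal filament genes were scarce. Nefh, the heavy chain that accompanies mature axons, measured 0.97 FPKM in each library (ratio interval 0.719 to 1.38), and Prph, the peripherin of peripheral neurons, 0.02 FPKM in the knockout library and 0.05 FPKM in the wild-type library. Over Nefl, Nefm, Nefh, Ina and Prph the summed level was 46.6 FPKM in the knockout library and 69.5 FPKM in the wild-type library, 1.49-fold lower. Nefl made up 73.0% of the sum in the knockout library and 71.96% in the wild-type library, Nefm 19.7% (knockout) and 24.2% (wild type), and Ina 5.13% (knockout) and 2.35% (wild type). The filament genes of undifferentiated cells were near level, with Vim, vimentin, at 104 (knockout) and 106 FPKM (wild type) and Nes, nestin, at 30.8 (knockout) and 28.9 FPKM (wild type).

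**Figure D3:**
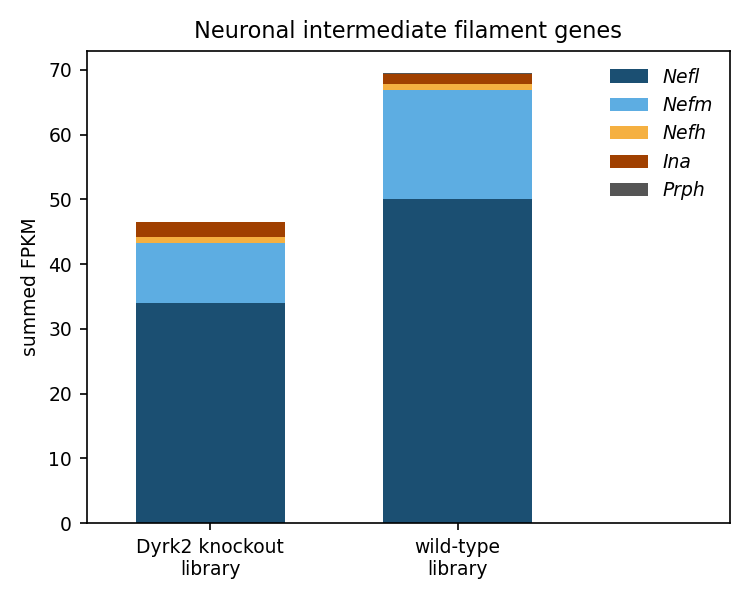
Summed FPKM of 5 neuronal intermediate filament genes in the Dyrk2 knockout library (left bar) and the wild-type library (right bar), stacked by gene; no error is drawn. The sum is 46.6 FPKM in the knockout library and 69.5 FPKM in the wild-type library, Nefl is the largest share in both, and Prph is too low to see.

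The summed level of the 10 markers rests on the neurofilament chains. It was 99.99 FPKM in the knockout library and 110 FPKM in the wild-type library, 1.10-fold lower (1.06 to 1.14). Without Nefl and Nefm it was 56.8 FPKM in the knockout library and 43.3 FPKM in the wild-type library, 1.31-fold higher (1.24 to 1.38). All 10 together took 0.0527% of fragments in the knockout library and 0.0565% in the wild-type library.

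Genes of the same roles were read from lists. Of 21 microtubule and motor genes of neurons other than the markers, some of them given above, 20 passed the filter. Of these, 18 were above equality and 2 below. With 0.5 FPKM added, 0 reached 1.5-fold in either direction. As plain ratios Stmn4, given above, and Map6 were past 1.5-fold higher. Map6 measured 1.55 (knockout) and 1.02 FPKM (wild type), 1.52-fold higher (1.26 to 1.84). The median log2 ratio of the list was 0.17. Tuba1a, the main alpha-tubulin of young neurons, measured 315 FPKM in the knockout library and 289 FPKM in the wild-type library. Of 14 growth cone and axon membrane genes, 12 passed, 8 above equality and 4 below, with a median of 0.06. Marcksl1, an actin-binding membrane protein gene, measured 597 (knockout) and 532 FPKM (wild type), Basp1, which encodes a growth cone protein related in function to Gap43, 152 (knockout) and 127 FPKM (wild type), and Marcks 130 (knockout) and 123 FPKM (wild type).

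RNA-binding proteins other than the markers went both ways. Of 19 listed genes 15 passed the filter, 9 above equality and 6 below, with a median log2 ratio of 0.07, 0 at least 1.5-fold higher and 2 at least 1.5-fold lower. The 2 lower ones were Celf3, a splicing regulator of neurons and endocrine cells, at 3.62 FPKM in the knockout library and 6.20 FPKM in the wild-type library, 1.71-fold lower (1.51 to 1.94), and Rbfox3, the gene of the NeuN antigen of mature neurons, at 1.38 (knockout) and 2.40 FPKM (wild type), 1.74-fold lower (1.42 to 2.12). Ptbp1, which represses neuronal exons in cells that are not neurons, was high at 150 (knockout) and 132 FPKM (wild type), Khdrbs3 measured 70.7 (knockout) and 57.1 FPKM (wild type), and Rbfox2 30.1 (knockout) and 31.6 FPKM (wild type).

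Genes for vesicle release and for neuronal commitment were mostly lower. Of 16 synaptic vesicle and exocytosis genes 11 passed the filter, 1 above equality and 10 below, with a median log2 ratio of -0.43. With 0.5 FPKM added, 2 were at least 1.5-fold lower. These were Syp, the vesicle protein synaptophysin, at 1.97 FPKM in the knockout library and 4.12 FPKM in the wild-type library, and Sv2a, another vesicle protein, at 2.88 (knockout) and 4.86 FPKM (wild type). Vamp2, the vesicle SNARE, measured 14.0 (knockout) and 19.1 FPKM (wild type), and Cplx2, which clamps the release machinery, 16.3 (knockout) and 16.7 FPKM (wild type). As plain ratios Stx1a, at 5.54 (knockout) and 8.50 FPKM (wild type), was 1.53-fold lower (1.32 to 1.78) and Syt4 1.56-fold lower (1.21 to 2.02). The 1 gene above equality was Syt1, at 2.37 (knockout) and 1.52 FPKM (wild type), 1.56-fold higher (1.33 to 1.83). Of 13 proneural and early neuronal factors only 5 passed, with a median of -0.47. Neurod1, a factor of neurons and corticotrophs, measured 0.71 FPKM in the knockout library and 3.33 FPKM in the wild-type library, 4.69-fold lower (3.30 to 6.80). Insm1, a repressor of endocrine and neuronal precursors, measured 15.1 (knockout) and 24.8 FPKM (wild type).

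**Figure D4:**
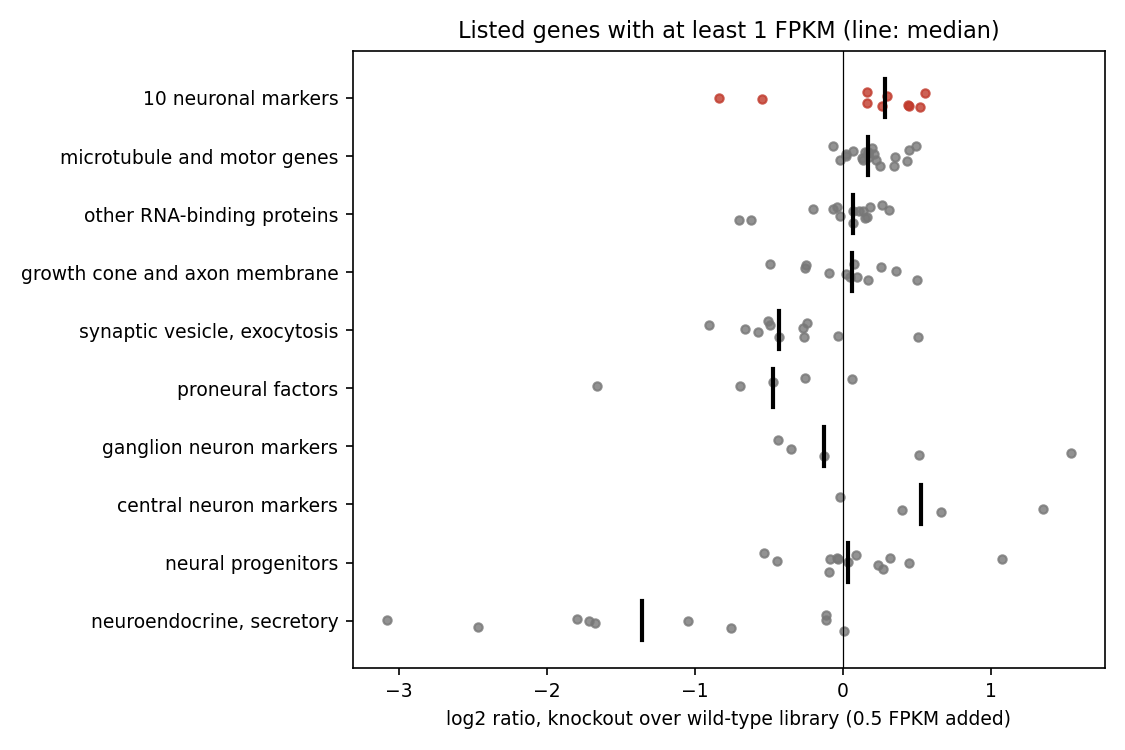
Log2 ratio of the Dyrk2 knockout over the wild-type library with 0.5 FPKM added, for listed genes that passed the 1 FPKM filter; each point is a gene and the bar is the list's median. The 10 neuronal markers (red) have a median of 0.28 with Nefl and Nefm apart at -0.55 and -0.84, and the neuroendocrine list has a median of -1.36.

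Markers of the cells that could supply such transcripts are given beside them, and their part in the values of the 10 markers was not tested. Of 15 neuroendocrine and pituitary secretory genes 10 passed the filter, 1 above equality and 9 below, 7 of them at least 1.5-fold lower, with a median of -1.36 and a summed level of 146 FPKM in the knockout library and 446 FPKM in the wild-type library. Chga, the granule protein chromogranin A, measured 10.8 (knockout) and 94.9 FPKM (wild type), Scg2 33.7 (knockout) and 189 FPKM (wild type), and Chgb 2.18 (knockout) and 8.79 FPKM (wild type). The differences were not shared evenly by the list. Cpe, also among its most abundant genes, was closer to level, at 49.45 (knockout) and 53.5 FPKM (wild type), a ratio of 0.924 (0.876 to 0.975). Ganglion neuron markers had 5 of 17 past the filter, 2 above equality and 3 below. With 0.5 FPKM added, 1 of them was at least 1.5-fold higher, namely Sncg, at 3.50 (knockout) and 0.88 FPKM (wild type). The list had a median of -0.13 and a sum of 22.3 FPKM in the knockout library and 25.5 FPKM in the wild-type library. Isl1, a factor that pituitary cells express too, measured 12.0 (knockout) and 16.4 FPKM (wild type) and made up most of that sum. Ntrk2, a neurotrophin receptor gene, measured 2.43 (knockout) and 2.70 FPKM (wild type), while Dbh, the noradrenaline-synthesising enzyme of sympathetic neurons, was listed at 0 in both.

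Central and hypothalamic neuron markers had 4 of 16 past the filter, 3 above equality and 1 below, 2 of them at least 1.5-fold higher and 0 at least 1.5-fold lower, with a median of 0.53 and a sum of 15.2 FPKM in the knockout library and 11.6 FPKM in the wild-type library. The 2 were the neuropeptide genes Npy, at 1.67 (knockout) and 0.35 FPKM (wild type), and Sst, at 1.38 (knockout) and 0.69 FPKM (wild type), whose ratio interval (0.890 to 4.77) includes equality. Otp, a hypothalamic neuron factor, measured 4.64 (knockout) and 3.41 FPKM (wild type) and Fezf2 4.42 (knockout) and 4.49 FPKM (wild type), while Slc17a6, the vesicular glutamate transporter of many such neurons, was at 0.02 FPKM in the knockout library and listed at 0 in the wild-type library. Genes under the filter went both ways. Slc32a1, another vesicular transporter gene, measured 0.78 (knockout) and 0.32 FPKM (wild type), 2.44-fold higher (1.38 to 4.48), and Sim1, given below, was lower. Neural progenitor markers all passed, 7 of 13 above equality and 6 below, with a median of 0.03 and a sum of 306 FPKM in the knockout library and 319 FPKM in the wild-type library. With 0.5 FPKM added, 1 of the 13 was at least 1.5-fold higher and 0 at least 1.5-fold lower. The 1 was Vax1, at 1.96 (knockout) and 0.67 FPKM (wild type), 2.93-fold higher (1.60 to 5.65). Sox2 measured 68.4 (knockout) and 66.9 FPKM (wild type). Some of the progenitor markers, such as Sox2 and Six6, are expressed by the pituitary itself.

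Markers of the remaining tissues differed in size and direction. Markers of glia and Schwann cell precursors had 4 of 7 past the filter, with a median of -0.16, and the sum was 28.3 FPKM in the knockout library and 28.4 FPKM in the wild-type library, most of it from Erbb3, at 24.3 (knockout) and 23.3 FPKM (wild type). The 3 under the filter were close to 0. Sox10 measured 0.10 (knockout, 6 fragments) and 0.03 FPKM (wild type, 2 fragments), Foxd3 0.09 (knockout) and 0.06 FPKM (wild type), and S100b 0.07 (knockout) and 0.10 FPKM (wild type). Mesenchyme markers, 2 of 9 above equality and 7 below, had a median of -0.56 and a sum of 145 FPKM in the knockout library and 218 FPKM in the wild-type library. With 0.5 FPKM added, 4 of the 9 were at least 1.5-fold lower, against 4.56% of all genes. In the other direction 1 of the 9 was at least 1.5-fold higher, against 2.06% of all genes. Endothelial markers, 5 of 6 above, had a median of 0.20 with sums of 106 (knockout) and 88.9 FPKM (wild type), erythroid markers a median of -0.37 with sums of 1743 (knockout) and 2266 FPKM (wild type), and 0 of 5 skeletal muscle genes passed the filter, with sums of 1.72 (knockout) and 0.83 FPKM (wild type).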

How the data were processed

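Total RNA of embryonic pituitaries was sequenced from stranded polyA-selected libraries, per the labels' protocols. The authors deposited 1 FPKM table per library with exon lengths, per the file headers. The submitters' processing notes list the tools cutadapt 1.9.1 and HISAT2 2.0.1 and the genome GRCm38. Counting tool, use of strand and annotation release were not given in the sources used here. Symbols were found for 55141 of 55401 identifiers in a gene name table, and coordinates and exons come from GENCODE M21.

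Low FPKM values are whole multiples of what 1 fragment is worth at a gene's length: all 1380 (knockout) and 1516 (wild-type) low values checked were whole within 0.1 fragment, which gave the depths. From the recovered fragments came exact 95% Poisson intervals of levels, Clopper-Pearson intervals of ratios and exact conditional intervals of ratios of ratios. For summed levels the interval is a normal approximation to counting error. No count model was run. Fold values are plain FPKM ratios; counts by fold and log2 ratios use 0.5 FPKM added, which understates changes of low genes, with a filter of 1 FPKM.

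The markers and the 15 other gene lists were chosen with earlier results of these data known. Named genes are the 10 markers and Dyrk2, close relatives, and from each list the 3 most abundant and up to 3 that differed most, by 1.5-fold or more. Pomc, Tubb5, Map6, Syt1, Syt4, Sox10, Foxd3, S100b, Slc17a6, Slc32a1, Nt5c2, Gm49318 and some genes of the closing observations were added after their values were seen. Beta-tubulin coding ends are the longest open reading frames of annotated transcripts. Alternatives were pseudocounts of 0.1 and 2 FPKM, filters of 5 FPKM and none, and rescaling by the upper quartile or a trimmed mean. The steps were tested on simulated counts with 200 changed genes. Python 3.11.15, SciPy 1.17.1 and pandas 2.3.3 were used.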

Additional observations from a re-analysis of the deposited data

How the results depend on the processing

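No paired analysis was possible because each genotype has a single library. The values without an added constant and the sum without both neurofilament chains were chosen after the data were examined. Every marker kept its direction under both other pseudocounts, both scalings and no pseudocount, with log2 ranges from -0.87 to -0.75 for Nefm and from 0.39 to 0.64 for Elavl3. With 2 FPKM added, which shrinks ratios, the log2 ratios of Nefm (-0.75), Elavl3 (0.39) and Elavl4 (0.25) fell outside the counting intervals of their plain ratios. The scalings multiplied the knockout library by 1.01 and 1.02. The count of markers at least 1.5-fold higher was 1 with a pseudocount of 0.1 FPKM and 2 with none, since the addition shrinks ratios of low genes. With a filter of 5 FPKM, which 5 markers passed, 3 had a log2 ratio above 0. The ratio of summed levels reversed to 1.10 without Nefl, the most abundant marker, and to 1.31 without Nefl and Nefm. Depth limits the low markers most: Ina rests on 156 (knockout) and 106 (wild type) fragments and Elavl4 on 196 (knockout) and 130 (wild type).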

Other observations

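Several low neuron-type genes differed between the libraries. Scn9a, Pou4f1, Phox2a, Sim1, Srrm3 and Srrm4 were chosen after their values were seen. Sncg, the gamma-synuclein gene of sensory and other peripheral neurons, measured 3.50 FPKM (2.67 to 4.51) in the knockout library and 0.88 FPKM (0.492 to 1.45) in the wild-type library, 3.98-fold higher (2.24 to 7.56). Scn9a, a sodium channel gene of sensory and endocrine cells, measured 2.0 (knockout) and 1.25 FPKM (wild type), 1.60-fold higher (1.39 to 1.85). Npy, the neuropeptide Y gene, measured 1.67 (knockout) and 0.35 FPKM (wild type), 4.77-fold higher with a wide interval (1.57 to 19.1). In the other direction, Pou4f1, a sensory neuron factor, measured 0.21 (knockout) and 0.95 FPKM (wild type), 4.52-fold lower (2.73 to 7.66). Phox2a, an autonomic and oculomotor factor, measured 0.24 (knockout) and 0.76 FPKM (wild type), 3.17-fold lower (1.49 to 7.11). Sim1, a hypothalamic neuron factor, measured 0.03 FPKM in the knockout library and 0.52 FPKM in the wild-type library.

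Among RNA-binding genes under the filter, Srrm3, which drives neuronal and endocrine microexon splicing, was 3.06-fold lower (1.86 to 5.20), at 0.17 FPKM in the knockout library and 0.52 FPKM in the wild-type library. Its relative Srrm4 measured 0.57 (knockout) and 0.72 FPKM (wild type), a ratio of 0.792 (0.607 to 1.05). Whether microexons differed was not analysed here.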
